A study of Mus musculus with 6 samples.

Results

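The genes of the mouse IgG Fc receptors, their shared signalling chain and the IgG transport receptor were followed in bulk RNA of monocytes from mouse melanoma tumours. The members were taken by gene symbol: Fcgr1, Fcgr3 and Fcgr4 (activating receptors), Fcgr2b (the inhibitory receptor), Fcer1g (the signalling chain) and Fcgrt (the transport receptor). These are 6 of the 56980 genes in the deposited table, and all 6 were among the 16010 genes that passed the low-count filter. The cells had been sorted as CD11b+, high for Ly6C and Ly6G-, from a tumour model of mCherry-labelled B16F10, a transplanted mouse melanoma line. Tumours had been treated with lipid nanoparticles (LNP) carrying either GFP (LNP-GFP, 3 libraries) or Gsdme (LNP-Gsdme, 3 libraries). Gsdme encodes gasdermin E, a pore-forming protein of lytic cell death. All libraries carry the genotype label WT, and the sources used here give no strain, age, dose or time after treatment. The series asked how gene expression and state of these tumour monocytes differ after LNP-Gsdme. The comparison described here is the receptors that switch phagocytes on against the receptor that holds them back.

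Fc gamma receptors bind the constant part of IgG and so let phagocytes act on cells and particles coated with antibody. The activating receptors signal through Fcer1g, a small chain with an ITAM, a tyrosine motif that Src-family kinases phosphorylate and the kinase Syk then reads. Fcgr2b carries an ITIM instead, a motif that recruits the phosphatase SHIP-1 and dampens the same signal, so the balance between both kinds sets how strongly a monocyte responds to immune complexes. Fcgr1 binds monomeric IgG with high affinity, Fcgr3 and Fcgr4 bind mainly complexed IgG, and Fcgrt (FcRn) pairs with B2m and protects IgG from breakdown inside cells.

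The LNP-GFP libraries held 20233559 to 22932095 counts and the LNP-Gsdme libraries 15991826 to 18751784. Below, 3 values in a row belong to replicates 1, 2 and 3 of a group, controls are the LNP-GFP libraries, log2 fold changes (LNP-Gsdme over LNP-GFP) carry ± SE with n = 3 per group, and adjusted p-values are from edgeR unless limma is named. The sort markers fitted the labels in part: the monocyte genes Ly6c2 and Ccr2 reached at least 211 and 87.8 CPM (counts scaled to a common library total) in every library, and Ly6g stayed at 0 to 0.618 CPM. Ly6c2 itself was far higher in LNP-Gsdme (1374 to 1856 CPM) than in LNP-GFP (211 to 267 CPM), although both groups were sorted as high for Ly6C. Summed macrophage markers stood at 4101 to 5656 CPM in LNP-GFP and 3767 to 4027 CPM in LNP-Gsdme, and summed fibroblast markers at 9229 to 10208 and 2308 to 5774 CPM. LNP-GFP 3 lay between LNP-GFP 1 and LNP-GFP 2 for 67.3% of 10914 well-counted genes, against 16.2% and 16.4% for the other LNP-GFP libraries in the middle position. Whether each library is its own animal is not stated in the labels, and the p-values therefore reflect only the variation among these libraries, possibly technical. Gsdme had 43 to 97 counts per library and did not pass (log2 fold change -0.26 ± 0.22, adjusted p = 0.450). In a bulk sample, fewer cells of a type and less RNA per cell cannot be told apart.

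The low-affinity receptors and the signalling chain lie near each other on chromosome 1 in the deposited table (GRCm39): Fcgr2b at 170786186 to 170804116, Fcgr4 at 170846489 to 170857330, Fcgr3 at 170878743 to 170892504 and Fcer1g at 171057141 to 171061934. Fcgr1 lies on chromosome 3 at 96190225 to 96201285, and Fcgrt on chromosome 7 at 44742414 to 44753275. Promoter windows of 300 bases from RefSeq (GRCm38.p6, matched by symbol for all 6 genes) are shown for Fcgr1 and Fcgr4, the activating receptors with the highest fold changes, and for the inhibitory receptor Fcgr2b. Capitals mark matches, on either strand, to the interferon-gamma-activated (GAS) motif TTCNNNGAA, the ISRE motif (GAAA, any 2 bases, GAAA) and the PU.1 core GAGGAA, and no matches overlap one another.
Fcgr1, minus strand, chr3:96293920-96294219: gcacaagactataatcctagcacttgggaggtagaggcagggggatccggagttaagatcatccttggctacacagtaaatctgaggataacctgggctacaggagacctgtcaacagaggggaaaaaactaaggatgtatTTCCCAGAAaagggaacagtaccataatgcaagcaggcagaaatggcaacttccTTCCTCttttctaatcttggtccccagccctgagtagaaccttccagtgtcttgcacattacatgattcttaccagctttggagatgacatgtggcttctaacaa
Fcgr4, plus strand, chr1:171018676-171018975: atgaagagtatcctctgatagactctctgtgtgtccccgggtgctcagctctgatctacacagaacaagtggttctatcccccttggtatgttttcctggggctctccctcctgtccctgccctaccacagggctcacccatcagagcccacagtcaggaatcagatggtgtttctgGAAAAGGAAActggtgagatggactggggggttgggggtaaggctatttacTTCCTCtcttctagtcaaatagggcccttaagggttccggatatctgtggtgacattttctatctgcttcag
Fcgr2b, minus strand, chr1:170976022-170976321: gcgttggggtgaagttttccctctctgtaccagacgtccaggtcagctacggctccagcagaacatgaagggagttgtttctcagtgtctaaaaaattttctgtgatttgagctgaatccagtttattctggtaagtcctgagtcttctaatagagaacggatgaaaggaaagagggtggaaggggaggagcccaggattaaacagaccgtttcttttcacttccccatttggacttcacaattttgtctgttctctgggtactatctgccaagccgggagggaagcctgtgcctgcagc
The Fcgr1 window held 1 GAS match, 109 to 101 bases before the start, and 1 PU.1 core. The Fcgr4 window held 1 ISRE match, 73 to 64 bases before the start, and 1 PU.1 core. The Fcgr2b, Fcer1g and Fcgrt windows held 0 matches to these letters, and both Fcgr3 windows held 1 PU.1 core. Among 32851 RefSeq windows of the same length, 8.3% held the GAS letters, 3.44% the ISRE letters and 28.3% the PU.1 core. Matches describe letters and not bound sites.

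Of the 6 genes, Fcgr1 rose in LNP-Gsdme and the other 5 did not pass the test. The share called as rising among all 16010 tested genes was 6.30%, and the share called as falling was 5.32%. No member fell by edgeR: 0 of 6 passed downward, 0 had an unadjusted p under 0.05 downward, and DESeq2 and limma-voom also called 0. At an unadjusted p under 0.05, 4 of 6 were higher, against 16.1% of all tested genes. The groups did not overlap, with LNP-Gsdme higher, for Fcgr1, Fcgr4 and Fcer1g, against 19.6% of all tested genes.

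Fcgr1, the high-affinity receptor that is also a common marker of monocyte-derived macrophages, stood at 524, 401 and 451 CPM among controls. It stood at 854, 845 and 806 CPM after LNP-Gsdme. All LNP-Gsdme libraries lay above all LNP-GFP libraries, and the 3 LNP-Gsdme libraries were close to each other. The group means were 459 ± 61.9 and 835 ± 25.7 CPM (SD, n = 3), a 1.82-fold rise (log2 fold change 0.86 ± 0.11; edgeR quasi-likelihood adjusted p = 0.0103). By its p-value the gene ranked 187 of 16010. The size of the rise held when libraries were left out, at 0.78 to 0.98 on the log2 scale, but the call did not. The adjusted p was 0.0732 without LNP-GFP 3, 0.0590 without LNP-Gsdme 1 and 0.0547 without LNP-Gsdme 2. Without LNP-GFP 3, 0.395% of all genes were still called as rising, and 0 of the 6 members were.

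Fcgr4, an activating receptor for IgG2 and IgE complexes that is high on Ly6C-low monocytes and neutrophils, varied most among the controls for its level (CV 34.3%). It stood at 297, 144 and 231 CPM among controls. It stood at 363, 355 and 330 CPM after LNP-Gsdme. The groups did not overlap, but LNP-GFP 1 lay close to the LNP-Gsdme libraries and LNP-GFP 2 far below. Within LNP-GFP the highest library was 2.06 times the lowest, and within LNP-Gsdme 1.10 times. The log2 fold change was 0.64 ± 0.24 (adjusted p = 0.130). It was 0.91 without LNP-GFP 1 (adjusted p = 0.0379) and 0.41 without LNP-GFP 2 (adjusted p = 0.106).

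Fcgr3, the low-affinity activating receptor of monocytes, neutrophils and NK cells, stood at 336, 241 and 282 CPM among controls and 381, 376 and 330 CPM after LNP-Gsdme. LNP-GFP 1 and LNP-Gsdme 3 overlapped. Its log2 fold change of 0.34 ± 0.13 did not pass (adjusted p = 0.139), and passed without LNP-GFP 1 (0.48, adjusted p = 0.0347). Fcer1g, the chain that all 3 activating receptors need at the surface, stood at 760, 627 and 661 CPM among controls and 866, 910 and 807 CPM after LNP-Gsdme. All LNP-Gsdme libraries were higher, by a log2 fold change of 0.34 ± 0.10 that missed the threshold (adjusted p = 0.0705). It passed without LNP-GFP 1 (0.43, adjusted p = 0.0241) and by DESeq2 (0.33, adjusted p = 0.0298).

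NK cells also carry Fcgr3 and Fcer1g. Of 9 NK markers 8 were tested and Gzma alone rose by edgeR, with a median log2 fold change of 0.87. At an unadjusted p under 0.05, 4 were higher, and DESeq2 called 3 and limma-voom 2 as rising. The summed NK markers stood at 446, 115 and 276 CPM among controls and 597, 556 and 461 CPM after LNP-Gsdme. The groups did not overlap for this sum. LNP-GFP 2, the lowest library for every member except Fcgrt, was also the lowest for this sum. Ncr1, a defining NK receptor, was at 0 to 0.936 CPM, and no marker of the list was at 0 in every library. The summed melanoma markers were highest in LNP-GFP 2, at 338, 1842 and 1105 CPM among controls, against 128, 177 and 757 CPM after LNP-Gsdme, and the groups overlapped. The part of either cell type in the receptor values was not tested. Neutrophils also carry Fcgr3 and Fcgr4, and their summed markers overlapped between groups, at 193 to 451 CPM and 245 to 458 CPM.

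Fcgr2b, the inhibitory receptor, did not pass the test. It stood at 344, 272 and 300 CPM among controls and 329, 345 and 321 CPM after LNP-Gsdme. The groups overlapped, and LNP-GFP 1 and LNP-Gsdme 2 were almost equal. Its log2 fold change was 0.12 ± 0.10 (adjusted p = 0.447), from 0.05 without LNP-GFP 2 to 0.22 without LNP-GFP 1. B cells carry Fcgr2b as well, and 6 of the 8 B cell and plasma cell markers averaged under 1 CPM, among them Ms4a1 and Pax5.

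Fcgrt, the transport receptor, was the lowest member and the only one with a negative fitted value. It stood at 42.3, 40.8 and 37.7 CPM among controls and at 40.2, 33.9 and 35.0 CPM after LNP-Gsdme. The groups overlapped, and the log2 fold change was -0.15 ± 0.10 (adjusted p = 0.332). Its partner chain B2m, which also serves MHC class I, rose from 2424 to 2995 CPM in LNP-GFP to 3630 to 4000 CPM in LNP-Gsdme (log2 fold change 0.47 ± 0.10; adjusted p = 0.0335).

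**Figure D1:**
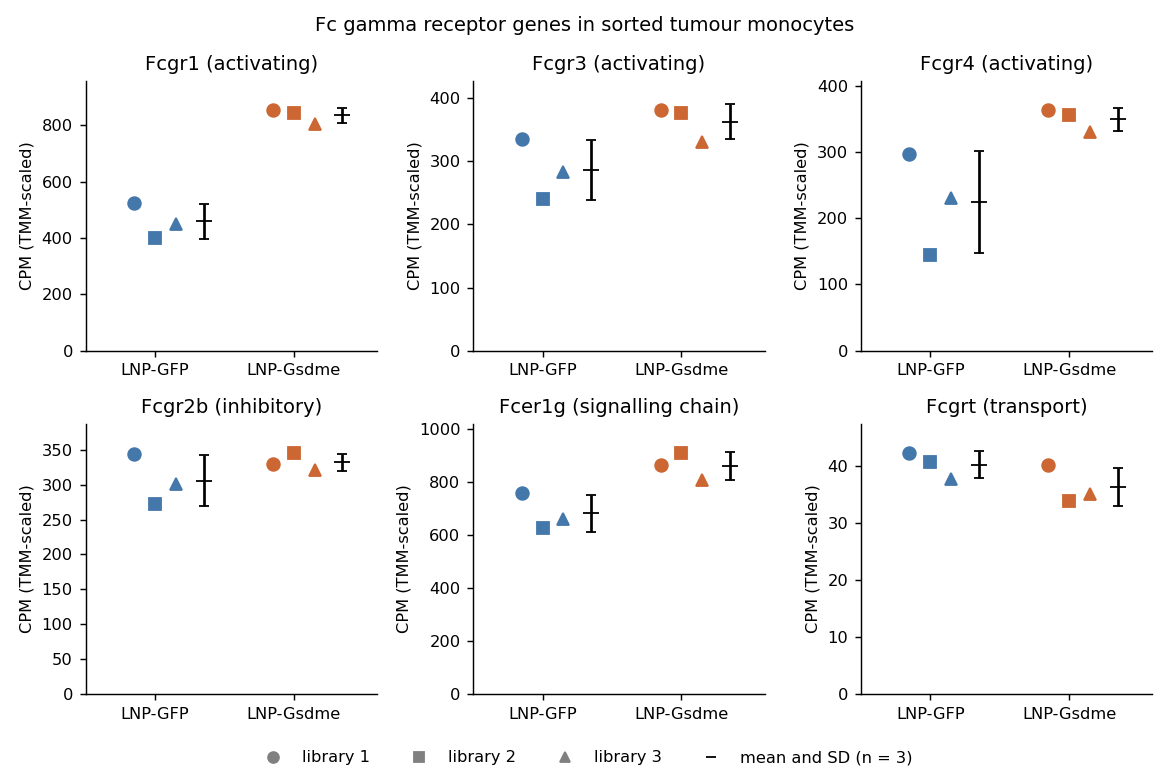
Each panel plots 1 gene, with CPM on the vertical axis from 0, the 6 libraries as points and the mean with its SD (n = 3) beside them. Fcgr1 shows the widest gap between groups, Fcgr4 the widest spread among LNP-GFP libraries (144 to 297 CPM), and Fcgr2b overlaps.

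**Figure D2:**
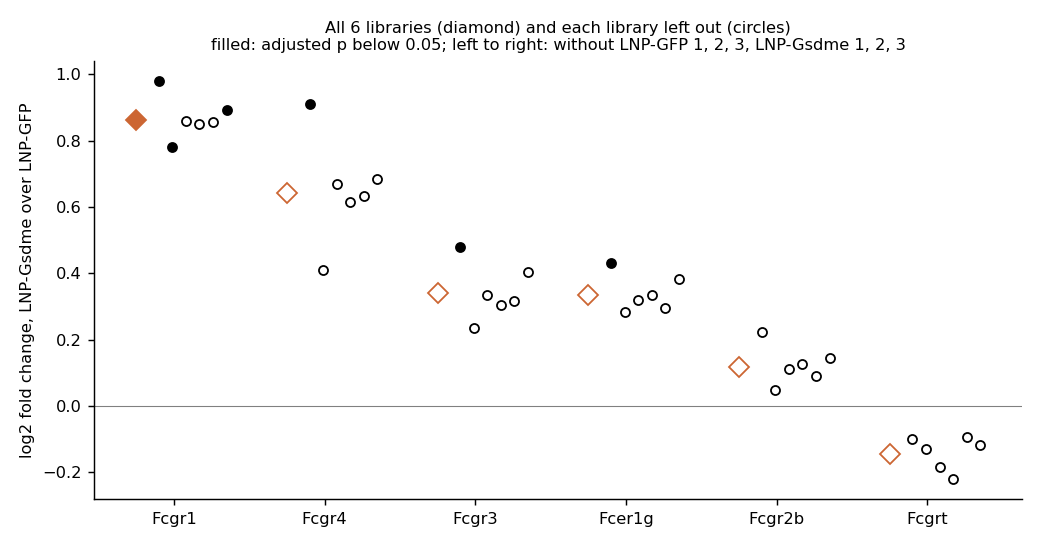
The vertical axis gives the log2 fold change of each member, LNP-Gsdme over LNP-GFP, with all 6 libraries (diamond) and with each library left out (circles). Filled symbols have an adjusted p below 0.05. Fcgr1 stays between 0.78 and 0.98 while its filled state changes, and Fcgr4 runs from 0.41 to 0.91.

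The activating receptors were next set against Fcgr2b within each library, which removes the library scaling. The ratio of Fcgr1 to Fcgr2b counts was 1.52, 1.47 and 1.502 among controls and 2.60, 2.45 and 2.51 after LNP-Gsdme. The libraries of a group were nearly equal, and the groups were far apart. LNP-GFP 2, low for each receptor, lay close to the other controls for this ratio. The log2 difference was 0.75 ± 0.09 (95% interval 0.53 to 0.96; limma adjusted p = 0.0103 over 16009 genes set against Fcgr2b in the same way). Of those genes 2.80% were called as rising against Fcgr2b, and all of these ratios share the counts of Fcgr2b. The Fcgr1 ratio no longer passed without LNP-GFP 3 (adjusted p = 0.0926), LNP-Gsdme 1 (0.0872) or LNP-Gsdme 2 (0.0663), with log2 differences of 0.72 to 0.77 over all libraries left out.

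The ratio of Fcgr4 to Fcgr2b was 0.862, 0.530 and 0.768 among controls and 1.10, 1.03 and 1.03 after LNP-Gsdme. Here LNP-GFP 2 stayed well below the other controls. The log2 difference of 0.58 ± 0.18 had a 95% interval of 0.15 to 1.01 and did not pass over all genes (limma adjusted p = 0.102), except without LNP-GFP 1 (0.72, adjusted p = 0.0284). It was 0.37 without LNP-GFP 2.

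The ratio of Fcgr3 to Fcgr2b was 0.975, 0.885 and 0.940 among controls and 1.16, 1.09 and 1.03 after LNP-Gsdme. The groups did not overlap, but the gap was small. The log2 difference was 0.23 ± 0.10 (95% interval -0.01 to 0.46; limma adjusted p = 0.194). For each of these 3 ratios an exact permutation test, with 20 ways to assign the libraries, gave p = 0.1, two-sided and also after adjustment over the 3, which is the smallest that 3 against 3 allows. Fcer1g per Fcgr2b count went from 2.20 to 2.30 in LNP-GFP to 2.51 to 2.64 in LNP-Gsdme, and its log2 difference of 0.21 did not pass (95% interval -0.002 to 0.43; limma adjusted p = 0.181).

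**Figure D3:**
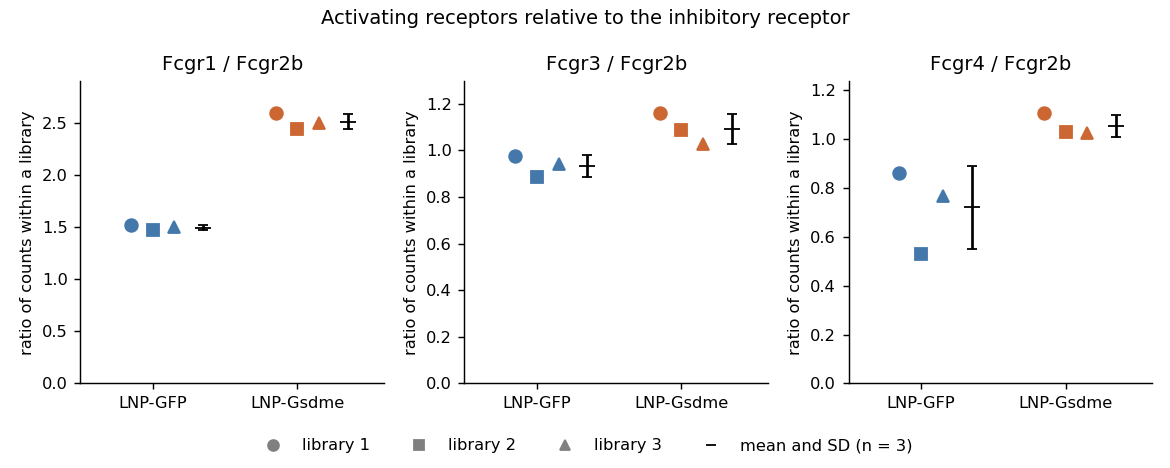
Each panel plots the counts of 1 activating receptor divided by those of Fcgr2b in the same library, from 0, with the mean and SD (n = 3) beside the points. For Fcgr1 the groups average 1.499 and 2.52, and LNP-GFP 2 stands furthest below the other controls in the Fcgr4 panel.

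Fcgr2b and Fcgr3 have similar extracellular parts, so reads could be shared between them. Of the 50-base words in GENCODE M21 transcripts of Fcgr3, 9.58% also occur in Fcgr2b transcripts, and 2.92% of those of Fcgr2b occur in Fcgr3. Fcgr1, Fcgr4, Fcer1g and Fcgrt shared 0 such words with any other gene. No source used here says how the authors' counting treated shared reads. Other genes in the table that overlap the members' spans had at most 17 counts in any library.

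Levels between genes were compared per kilobase, with the deposited FPKM. In LNP-GFP the order of mean FPKM was Fcer1g (421 ± 47.4), Fcgr4 (177 ± 62.3), Fcgr1 (156 ± 22.7), Fcgr3 (74.0 ± 13.1), Fcgr2b (40.2 ± 5.24) and Fcgrt (9.48 ± 0.594) (SD, n = 3). In LNP-Gsdme Fcgr1 and Fcgr4 were the highest receptors, at 288 ± 2.35 and 280 ± 7.60 FPKM, ahead of Fcgr3 (95.3 ± 5.22) and Fcgr2b (44.4 ± 1.42) (SD, n = 3). The FPKM of Fcgr1 and Fcgr4 overlapped among controls, and in LNP-Gsdme touched only at 286. The gene lengths used changed the distances between the receptors, but not the order of their means within a group. The lengths behind the deposited FPKM are 3829 bases for Fcgr3 and 7526 for Fcgr2b, against exon lengths of 1736 and 5790 in GENCODE M21, while Fcgr4 has 1256 in both. With the M21 lengths, Fcgr3 came to 163 ± 29.0 in LNP-GFP (SD, n = 3), beside 176 for Fcgr1 and 177 for Fcgr4. In LNP-Gsdme the M21 lengths put Fcgr1 at 325 ± 2.65, above Fcgr4 at 280 ± 7.60 and Fcgr3 at 210.2 ± 11.5 (SD, n = 3), so Fcgr1 and Fcgr4 then stood apart.

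By deposited FPKM, the 3 activating receptors together were 11.01, 8.71 and 10.3 times Fcgr2b among controls and 15.6, 14.6 and 14.6 times after LNP-Gsdme. The ratio of group means was 1.49, and 1.44 with the M21 lengths. In the make-up of the 4 IgG receptors, Fcgr1 went from 32.7, 39.1 and 34.2% among controls to 40.4, 40.4 and 41.4% after LNP-Gsdme, and Fcgr2b from 8.33 to 10.3% to 6.03 to 6.40%. The share of the activating receptor Fcgr3 was also lower, at 16.0, 17.9 and 16.3% among controls and 13.7, 13.7 and 12.9% after LNP-Gsdme. With the M21 lengths its share was 28.0 to 30.5% and 23.2 to 24.5%. The share of Fcgr4 overlapped between the groups (32.7 to 43.0% and 39.3 to 39.9%). Per summed activating receptor, Fcer1g was 0.940 to 1.24 among controls and 0.792 to 0.846 after LNP-Gsdme. These sums are descriptions without a test.

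**Figure D4:**
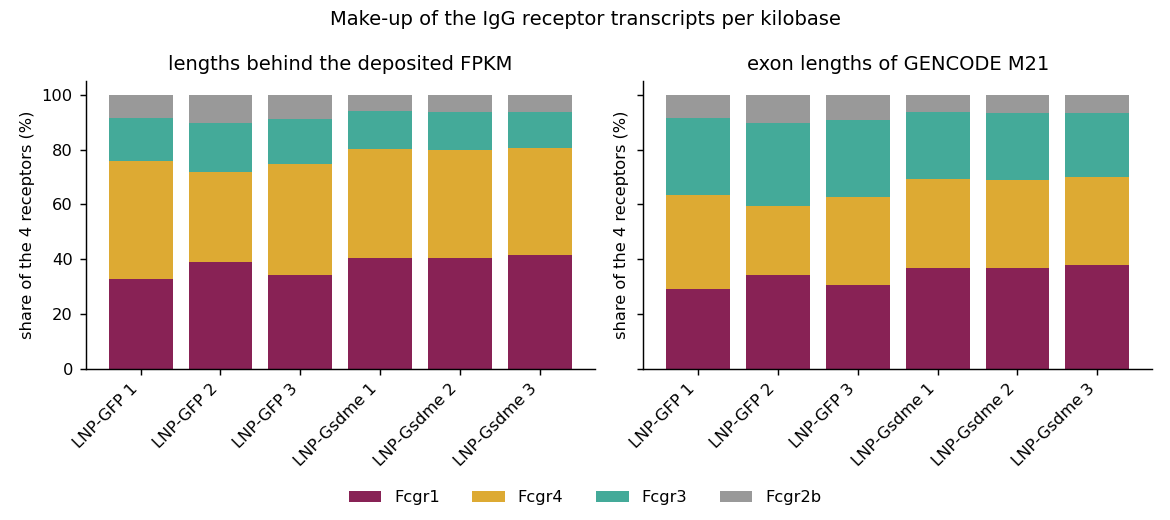
Stacked bars give the share of each of the 4 IgG receptors in their summed level per kilobase, for each library, with the lengths behind the deposited FPKM (left) and with GENCODE M21 exon lengths (right). Fcgr2b is the smallest share in every library, from 6.03 to 10.3% on the left, and the share of Fcgr3 is larger on the right.

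The genes whose log2 CPM followed each member most closely over the 6 libraries were named, out of 7404 compared. Most of these correlations hold the difference between the groups and also the library-wide differences that all genes share, so they are descriptions. Fcgr1 was most like Nfkbie, an NF-kB inhibitor (r = 0.999), and Commd1 (r = 0.999). Fcgr4 was most like Wdfy3 (r = 0.999) and Siglec1, the macrophage receptor sialoadhesin (r = 0.999). Siglec1 stood at 306, 111 and 202 CPM among controls and 379, 367 and 334 CPM after LNP-Gsdme, with the same low LNP-GFP 2. Fcgr3 was most like Rac2, a GTPase of phagocyte actin and oxidase control (r = 0.999), and Cnn2 (r = 0.998). Fcgr2b was most like Secisbp2l and Eif4e3 (r = 0.997 and 0.996), Fcer1g like Ccz1 and Ncoa2 (r = 0.998 and 0.998), and Fcgrt like Snrpert and Bms1 (r = 0.979 and 0.955). Among the members, Fcgr3 and Fcgr4 were the most alike (r = 0.973), and Fcgr1 and Fcgr2b were less so (r = 0.712).

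Genes around the receptors were taken from 9 lists with 160 genes, of which 143 were tested, 22 rose and 5 fell. Over all 16010 tested genes 6.30% were called as rising and 5.32% as falling, and the median log2 fold change was -0.01. These shares are the background for the called counts of each list below. Over all genes, DESeq2 called 1469 of 15586 as rising and 1514 as falling, and limma-voom 1035 of 16010 and 873. At an unadjusted edgeR p under 0.05, 16.1% of all tested genes were higher. The share that was lower is not given here, so counts of lower genes at that level have no background beside them. As for Fcgr1 and over all genes, the number of calls changed with the libraries left in the fit. Without LNP-GFP 3, 0 of the 27 passed, while calls over all genes went from 1859 of 16010 to 88 of 16219. In the fits without LNP-Gsdme 1 and without LNP-Gsdme 2, 2 genes of the lists passed each time. Over all genes, 153 of 16527 and 187 of 16512 were then called.

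Of 13 immunoglobulin chain genes 6 were tested and 0 passed by edgeR (0 at an unadjusted p under 0.05, and 0 by DESeq2 or limma-voom), with a median log2 fold change of -0.78. Ighm, the heavy chain of IgM, was at 35.8 to 57.9 CPM. Jchain, which joins IgM and IgA chains, had the smallest p and stood at 0.309 to 1.47 CPM. Of 14 other receptors that bind immunoglobulin or pair with such receptors, 8 were tested, 2 rose and 1 fell (median log2 fold change 0.15). Fcrl1, a B cell receptor of the Fc receptor-like family, rose from 2.93 to 3.66 CPM in LNP-GFP to 8.40 to 9.67 CPM in LNP-Gsdme (a 2.83-fold change; adjusted p = 0.00596). B2m rose as given above. Fcrls, an Fc receptor-like gene of mouse macrophages and microglia, fell, from 27.6, 12.0 and 20.7 CPM among controls to 7.32 to 8.98 CPM in LNP-Gsdme (adjusted p = 0.0416).

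Other receptors that signal through Fcer1g, Tyrobp or a like chain, listed with the chains Tyrobp and Hcst, did not pass. By edgeR 0 of 12 tested passed, with 1 higher and 5 lower at an unadjusted p under 0.05. DESeq2 called 1 as rising and 2 as falling, and limma-voom called 0 of these genes. Their median log2 fold change was -0.21. Clec4d, a C-type lectin that uses Fcer1g, had the smallest p, with 211, 412 and 329 CPM among controls and 145 to 186 CPM in LNP-Gsdme (log2 fold change -0.96 ± 0.24; adjusted p = 0.0511).

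Among the kinases and adaptors that carry the activating signal, 7 of 35 rose and 2 fell, with a median log2 fold change of 0.10. Among the rising genes were the Tec-family kinases Btk and Tec, the exchange factor Vav1, the adaptors Lat2 and Card9 and the kinase subunit Pik3cd. Btk rose by 0.64 ± 0.10, Lat2 by 0.42 ± 0.08 and Tec by 0.51 ± 0.09 on the log2 scale (adjusted p = 0.0194, 0.0236 and 0.0249). Pik3r5, a regulator of the PI3-kinase gamma complex, and Prkce, a protein kinase C, fell by 0.66 and 0.55 on the log2 scale. Syk itself stood at 1064 to 1171 CPM in LNP-GFP and 919 to 1045 CPM in LNP-Gsdme and did not pass (adjusted p = 0.143).

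Among the phosphatases and adaptors that act on the inhibitory side, 5 of 14 rose and 0 fell by edgeR (1 lower at an unadjusted p under 0.05, and 0 lower by DESeq2 or limma-voom). Their median log2 fold change was 0.51. Dok1, an adaptor that restrains tyrosine kinase signals, rose by 0.72 ± 0.08 on the log2 scale and Sh2d1b1 by 0.89 ± 0.10 (adjusted p = 0.00882 and 0.00806). Sh2d1b1 encodes EAT-2, an adaptor best known in NK cells and not solely an inhibitor there. Ptpn6, the phosphatase SHP-1, rose from 98.1 to 158 CPM in LNP-GFP to 222 to 329 CPM in LNP-Gsdme (log2 fold change 1.14 ± 0.21; adjusted p = 0.0258). Dok3 and Inppl1, the phosphatase SHIP-2, rose by 0.56 and 0.47 on the log2 scale. Inpp5d, the phosphatase SHIP-1 that Fcgr2b recruits, stood at 236, 149 and 199 CPM among controls and 318, 325 and 277 CPM after LNP-Gsdme and did not pass (adjusted p = 0.0563).

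Of 18 other inhibitory receptors with an ITIM, Cd300lf and Pirb rose and 0 fell by edgeR (2 lower at an unadjusted p under 0.05, 1 lower by DESeq2 and 0 by limma-voom), with a median log2 fold change of 0.21. Cd300lf, a receptor for lipids on dying cells, rose by 1.06 ± 0.13 on the log2 scale, and Pirb, a receptor for MHC class I, by 0.65 ± 0.11 (adjusted p = 0.00958 and 0.0196). Pirb has close relatives, so some of its reads may belong to them. Set against Fcgr2b within each library, both rose: the log2 difference was 0.92 ± 0.16 for Cd300lf and 0.53 ± 0.10 for Pirb (limma adjusted p = 0.0293 and 0.0324). Both genes had already been called in the same libraries, so these ratios are not separate support. Other receptors of the list lay on either side, such as Lair1 at 1.04 and Cd33 at -1.135. Neither of these passed (limma adjusted p = 0.114 and 0.0890).

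Downstream of the receptors, 2 of 23 tested genes of actin and engulfment rose, the membrane-trafficking GTPases Dnm2 and Arf6, and 0 fell (2 lower at an unadjusted p under 0.05, 2 by DESeq2 and 0 by limma-voom). They rose by 0.42 ± 0.07 and 0.50 ± 0.09 on the log2 scale (adjusted p = 0.0214 and 0.0216), with a list median of 0.13. Of 5 NADPH oxidase genes, Cybb, the catalytic subunit of the phagocyte oxidase, fell, from 1048 to 1097 CPM in LNP-GFP to 587 to 792 CPM in LNP-Gsdme (log2 fold change -0.61 ± 0.12; adjusted p = 0.0271). The other 4 subunits had log2 fold changes of 0.17 to 0.54 and did not pass (0 rose by edgeR, 2 were higher at an unadjusted p under 0.05, 1 by DESeq2 and 0 by limma-voom).

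Among 22 genes of cytokine and other inputs, kinases and transcription factors known to act on Fc gamma receptor levels, 4 rose and 1 fell. The list median was 0.16. Ifngr2, Stat6 and Cebpb were among those that rose. Ifngr2, a chain of the interferon gamma receptor, rose by 0.49 ± 0.11 on the log2 scale and Tgfbr1, a TGF-beta receptor, fell by 0.63 (adjusted p = 0.0360 and 0.0182). Spi1, which encodes PU.1, stood at 440 to 563 CPM in LNP-GFP and 524 to 579 CPM in LNP-Gsdme and did not pass (adjusted p = 0.479).

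**Figure D5:**
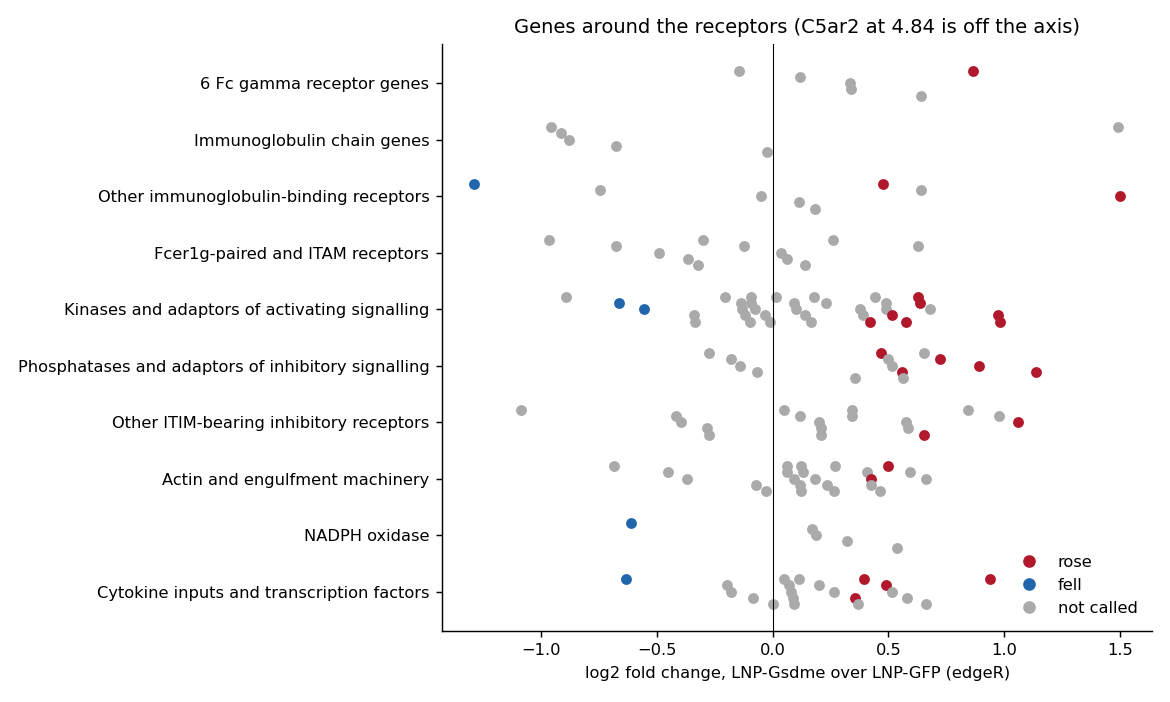
Each point is 1 tested gene, placed by its log2 fold change (LNP-Gsdme over LNP-GFP), with the 6 receptor genes in the top line and the 9 lists below. C5ar2, at 4.84 and not called, lies off the axis. Red genes rose, blue genes fell and grey genes did not pass the edgeR test. Rises outnumber falls in the lists of activating and inhibitory signalling (7 against 2 and 5 against 0). They also do so over all tested genes (1008 against 851).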

How the data were processed

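RNA sequencing counts were analysed for 3 LNP-GFP and 3 LNP-Gsdme libraries, grouped by the treatment label. Per the labels' protocols, column-extracted RNA was treated with DNase and made into paired-end TruSeq libraries. The authors deposited 1 table with raw counts and FPKM per Ensembl gene, per the file headers. Coordinates are on GRCm39, which the submitters' processing notes name. Aligner, counter and strand setting: not given in the sources used here.

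Counts were tested in R 4.3.3 with edgeR 4.0.16 (filterByExpr, TMM factors 0.980 to 1.04, robust quasi-likelihood), with Benjamini-Hochberg adjustment over 16010 genes and calls below 0.05. Ratios to Fcgr2b were tested with limma 3.58.1 on log2 CPM (prior count 2, trend, robust), and single ratios with an exact permutation test. Alternatives were DESeq2 1.42.0, limma-voom, other factors and filters, the replicate block and each library left out. The M21 gene lengths were an alternative chosen after seeing the data.

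The members and lists were chosen with earlier results of these data known. Named genes are the members, up to 3 called genes with the smallest p per list (or 1 where none passed), the leading markers and the 2 genes most like each member (average log2 CPM of at least 4). Other names were chosen after their values were seen, and some genes that the rule names are not reported here. Marker lists not described above (T cell, dendritic, mast and endothelial cells, Ly6C-low monocytes) had these summed levels: T cell 169 to 481 and 421 to 525 CPM, dendritic 333 to 338 and 187 to 263, mast 20.8 to 25.5 and 11.4 to 15.5, endothelial 247 to 279 and 178 to 236, and Ly6C-low 1139 to 1188 and 952 to 1229 CPM in LNP-GFP and LNP-Gsdme. Summed Ly6C-high monocyte markers stood at 1940 to 2859 and 3597 to 4184 CPM. B cell and plasma cell markers summed to 270 to 460 and 112 to 136 CPM, most of it Sdc1. By edgeR, 1 of 9 dendritic markers rose (Dpp4) and 2 fell (Xcr1, Cd209a), 1 of 9 Ly6C-low markers rose (Nr4a1) and 1 fell (Treml4), and Kit, Vwf and Sdc1 fell in the mast, endothelial and B cell lists. Of 9 T cell markers 0 passed, with 1 higher at an unadjusted p under 0.05 and 0 by DESeq2 or limma-voom.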

Additional observations from a re-analysis of the deposited data

How the results depend on the processing

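Over 14 alternatives, Fcgr2b and Fcgrt kept their direction and stayed uncalled in all. Fcgr1 kept its direction in all and its call in 10. The same-numbered libraries did not pair: their deviations from the group means correlated at 0.214, -0.237 and 0.0315, and 2 of 6 libraries correlated best with their own number. With the replicate block, 155 genes, 0 members and 3 list genes were called, Fcgr1 stood at 0.87 (adjusted p = 0.0502) and its ratio to Fcgr2b at 0.75 (adjusted p = 0.0704). Against 1859 genes, 1 member and 27 list genes, DESeq2 called 2983, 2 and 54, with Fcer1g at 0.33 (adjusted p = 0.0298). With each library left out, 88 to 2841 genes, 0 to 4 members and 0 to 50 list genes were called. Without LNP-GFP 3 these were 88, 0 and 0, without LNP-Gsdme 1 153, 0 and 2, without LNP-Gsdme 2 187, 0 and 2, without LNP-GFP 2 947, 1 and 15, and without LNP-GFP 1 2841, 4 and 50. The log2 fold changes ran from 0.78 to 0.98 for Fcgr1, 0.24 to 0.48 for Fcgr3, 0.41 to 0.91 for Fcgr4 and 0.28 to 0.43 for Fcer1g, and the ratios to Fcgr2b from 0.72 to 0.77 for Fcgr1 and 0.37 to 0.72 for Fcgr4. The ratio of Fcgr3 stayed uncalled in all 10. With M21 lengths the summed activating receptors were 14.1 times Fcgr2b in LNP-Gsdme and 9.79 times in LNP-GFP, against 14.9 and 10.0. Upper-quartile factors gave 855 rises and 1055 falls, against 1008 and 851. The cause of these shifts was not tested. Counts ran from 543 to 969 for Fcgrt, where counting error is a sizeable part of the spread, and were at least 3145 for the other members.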

Other observations

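C5ar2, a receptor for the complement fragment C5a, is listed among the inputs to Fc gamma receptors and was split within a group. It had 12, 3 and 1 counts in LNP-GFP 1 to 3 and 1, 190 and 187 counts in LNP-Gsdme 1 to 3, so LNP-Gsdme 1 resembled the controls. It did not pass with all libraries (edgeR adjusted p = 0.0804), and was called by DESeq2 and by edgeR without LNP-Gsdme 1. Its partner receptor C5ar1 stood at 453 to 568 CPM in LNP-GFP and 487 to 556 CPM in LNP-Gsdme. Grb2, an adaptor below the receptors, stood at 177, 167 and 348 CPM among controls and 190, 393 and 178 CPM after LNP-Gsdme, with 1 library of each group far above its fellows. Of the IgG heavy chains, Ighg2c had 55, 23 and 0 counts in LNP-Gsdme 1 to 3 and 0 in each LNP-GFP library. These genes were picked after their values were seen.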
